A study of Mus musculus with 21 samples.

Results

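The ribosomal share of a cell is the percent of its unique molecular identifiers (UMIs, tags that each mark 1 captured transcript) that came from ribosomal genes. The authors computed this percent for every cell and deposited it, and the list of genes behind it was not given in the sources used here. All 87822 cells of the 21 samples carried the value, and it was compared between cell types, myogenic states and days after injury. The level of a cell type in a sample was the median over its cells, taken where that sample held at least 10 cells of the type, which covered 83655 of the 87822 cells. Ribosomal protein genes encode the protein subunits that join with ribosomal RNA to form the ribosome, the machine that translates messenger RNA. Their transcripts are short and abundant, and their translation is regulated as a group by growth signals. Making ribosomes is costly, and cells that grow, divide or leave quiescence, as muscle stem cells do after injury, are known to raise ribosome production.

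The samples were dissociated tibialis anterior muscles of female C57Bl/6J mice aged 20 months, with 1 mouse per sample. Injury was made with notexin, a snake venom toxin that destroys myofibers and so starts regeneration. Muscles were taken from 4 uninjured mice and, in days post-injury (dpi), from 4 mice at 1 dpi, from 3 each at 2, 5 and 7 dpi and from 4 at 3.5 dpi. Each sample is named by its time point and a replicate letter. Transcripts were captured by droplet single-cell RNA sequencing, and the cells of a sample held between 5602464 and 70730171 UMIs in total. Of 86853 distinct cell barcodes, 966 occurred in more than 1 sample. The pair of samples that shared most had 32 in common, 0.418% of the smaller sample, and 0 of 210 pairs had the same share at every barcode they shared.

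Cell types were the authors' labels after integration with Harmony, a method that aligns samples before clustering, and myogenic states were the authors' labels along a differentiation trajectory. Both were made from the expression of the same cells. Whether ribosomal genes were among the genes used is not given in the sources, so differences between types describe labelled cells and are not independent of the labelling. Over single cells the ribosomal share ranged from 0.339% to 61.1%, with a median of 10.2% and a 10th to 90th percentile range of 5.50% to 18.2%.

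The ribosomal share differed strongly between cell type labels. The 23 types gave 423 sample levels, and 75.8% of the variance of these levels lay between types. Among the cells of a sample, types accounted for 15.4% (uninjured replicate D) to 63.9% (5 dpi replicate A) of the variance, with a median of 52.3%. The type with the highest median level over samples stood 6.34 times above the type with the lowest, neutrophils, whose level depended on the cells kept. The order of types was alike in most samples: Spearman's correlation of a sample's levels with the median levels in the other samples had a median of 0.894 and ran from 0.554 in 1 dpi replicate A to 0.971 in 3.5 dpi replicate D, a description over 11 to 23 types that share a library.

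Muscle stem cells (MuSCs) and lymphocytes stood at the top. The median level over samples was 20.6% in MuSCs (19 samples, 4.91% to 26.2%), 20.4% in NK cells (14 samples, 17.6% to 24.6%) and 19.3% in B cells (14 samples, 12.4% to 23.5%). Myoblasts and progenitors followed with 18.9% (10 samples, 11.9% to 20.9%), T cells with 17.8% (18 samples, 4.25% to 23.5%) and dendritic cells with 17.1% (18 samples, 13.8% to 19.9%). These 6 types, the proliferative or resting stem cells of muscle and the lymphoid and antigen-presenting cells, were the types above 15%.

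Stromal, endothelial and macrophage types lay in the middle. Vein endothelial cells had a median level of 13.9% (11.4% to 18.1%), and the fibro-adipogenic progenitors (FAPs), mesenchymal cells that lay down matrix and can form fat, had 13.5% in the stem subtype (10.1% to 22.3%), 13.1% in the adipogenic subtype (9.83% to 20.9%) and 11.9% in the pro-remodeling subtype (7.82% to 20.5%). Inflammatory monocytes stood at 11.9% (10.3% to 15%), tenocytes, the cells of tendon, at 11.1% (7.30% to 13.9%), and M2 macrophages at 11.1% where labelled Cx3cr1_hi (9.34% to 13.3%) and 9.98% where labelled Cx3cr1_lo (7.20% to 11.8%). Artery endothelial cells stood at 9.90% (7.87% to 11.9%), Cxcl10+ monocytes at 9.81% (7.33% to 11.5%) and patrolling monocytes at 9.32% (6.99% to 10.3%). The FAP subtypes spanned a wider range over samples than the monocytes and macrophages did.

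Contractile, neural and neutrophil labels were lowest. Capillary endothelial cells had a median level of 8.50% (6.67% to 12.7%), smooth muscle cells 8.16% (5.86% to 11.2%), type IIx myonuclei 7.74% (5.87% to 10.3%) and type IIb myonuclei 7.55% (5.51% to 9.54%). Myonuclei is the authors' label for nuclei of fast muscle fibers, given here to barcodes of dissociated muscle rather than of isolated nuclei. Neural cells had 7.21% (5.79% to 10.4%) and neutrophils 3.24% (1.91% to 11.2%). The neutrophil level was 6.77% with stricter filters. The smooth muscle level was 10.2% with pooled shares and 6.48% with cells of 2000 to 10000 UMIs. The neural level was 8.55% with pooled shares and 8.59% with mitochondrial UMIs left out. Neutrophils were the lowest type in 14 of the 21 samples, type IIb myonuclei in 3, neural cells in 3 and smooth muscle cells in 1. The highest type was NK cells in 6 samples, MuSCs in 6, B cells in 5, T cells in 2, vein endothelial cells in 1 and adipogenic FAPs in 1.

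**Figure D1:**
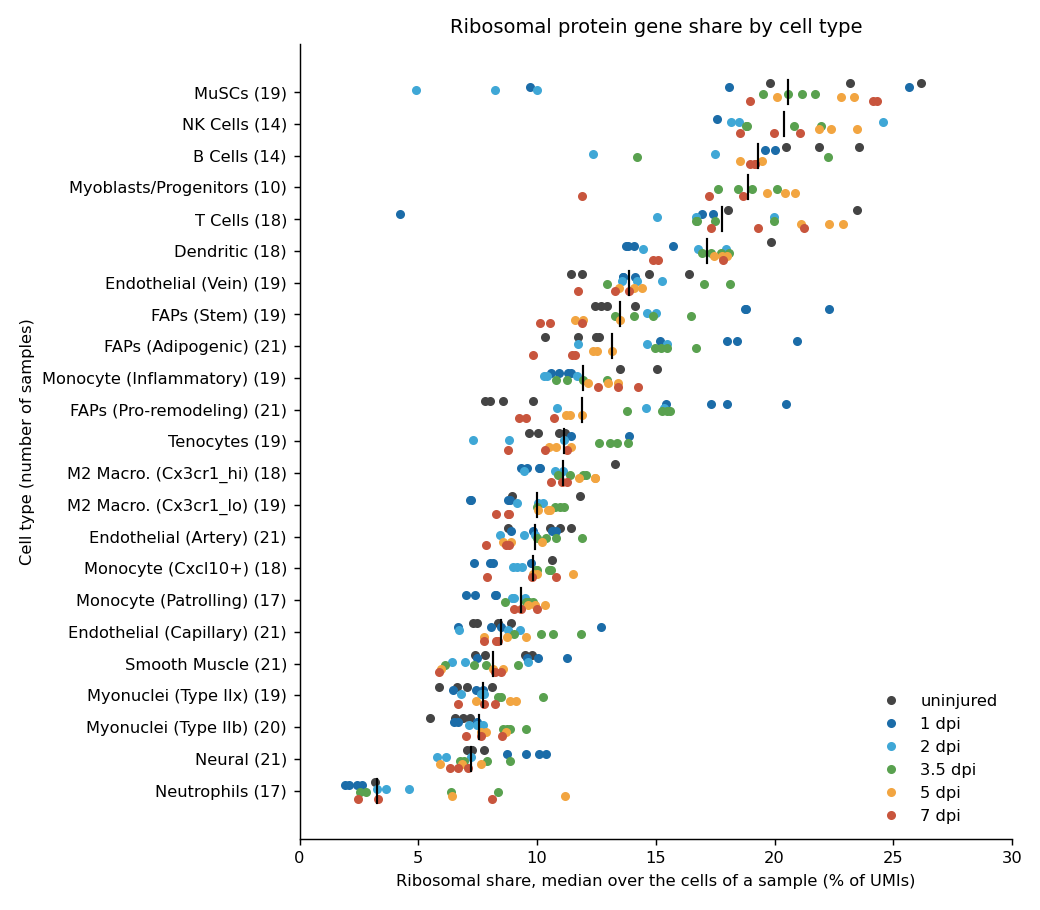
Ribosomal share (percent of UMIs, horizontal axis) of the 23 cell types, with 1 point per sample coloured by time point and the median over samples marked; the medians run from 20.6% in MuSCs to 3.24% in neutrophils.

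In the order of levels, most neighbours did not differ beyond their spread. Types were compared within samples with a two-sided exact sign-flip test of the mean difference, adjusted by the Benjamini-Hochberg method over all 253 pairs with at least 6 shared samples. Of these pairs, 216 (85.4%) differed at an adjusted p under 0.05, but of the 22 neighbours only 4 did. Dendritic cells stood 2.57 ± 2.21 percentage points (SD, 16 samples) above vein endothelial cells (exact test, adjusted p = 0.000496), adipogenic FAPs 2.15 ± 3.78 (19 samples) above inflammatory monocytes (0.0270), Cx3cr1_hi above Cx3cr1_lo macrophages by 1.63 ± 0.986 (18 samples, 4.6e-05) and neural cells above neutrophils by 3.24 ± 3.56 (17 samples, 0.00372). The medians come from different sets of samples, and in 5 of the 22 neighbours the mean difference within shared samples ran against the order. These were MuSCs minus NK cells (-2.65 points), progenitors minus T cells (-1.10), inflammatory monocytes minus pro-remodeling FAPs (-1.13), tenocytes minus Cx3cr1_hi macrophages (-0.127) and Cx3cr1_lo macrophages minus artery cells (-0.235), none of them called. The order of close types is thus not resolved.

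Within a broad class, 28 of 35 pairs of types differed (80%), a share close to that of all pairs. Vein endothelial cells were above artery cells by 4.36 ± 1.59 points and above capillary cells by 5.51 ± 1.54 points, in 19 of 19 samples each (exact test, adjusted p = 3.86e-05 in both). Artery cells were above capillary cells by 0.995 ± 1.57 points in 15 of 21 samples (exact test, adjusted p = 0.0115), a call that was lost with pooled shares (0.343 points, 0.293), stricter filters on cells (0.497 points, 0.154) and cells of 2000 to 10000 UMIs (0.458 points, 0.125). Venous cells thus had the highest share of the 3 endothelial labels in every sample that held them, and the step between artery and capillary cells depended on these choices.

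Dendritic cells were above each of the other 6 myeloid types in every shared sample, by 4.46 ± 1.65 points over inflammatory monocytes (18 samples) and by 11.8 ± 2.72 points over neutrophils (16 samples). Inflammatory monocytes were above Cx3cr1_lo macrophages in 19 of 19 samples (2.57 ± 1.69 points), above Cxcl10+ monocytes in 18 of 18 (2.42 ± 1.23 points), above patrolling monocytes in 17 of 17 (2.83 ± 1.01 points) and above Cx3cr1_hi macrophages in 14 of 18 (0.990 ± 0.988 points). The adjusted p of these exact tests was 0.000444 or lower. Neutrophils were below each other myeloid type (exact test, adjusted p = 0.000299 or lower), but with stricter filters the difference was no longer called for patrolling monocytes (1.26 points, 0.253), Cxcl10+ monocytes (1.78 points, 0.112) and Cx3cr1_lo macrophages (2.00 points, 0.0896), nor for patrolling monocytes with cells of 2000 to 10000 UMIs (1.89 points, 0.0836). Cx3cr1_lo macrophages were above patrolling monocytes by 0.414 ± 0.760 points in 13 of 17 samples (exact test, adjusted p = 0.0482). That call was lost with at least 20 cells (0.414 points, exact test, 0.0502), on a logit scale (0.0560) and on leaving out any sample at 2, 3.5 or 5 dpi, or 1 dpi replicate B, C or D (0.357 to 0.427 points, exact test, adjusted p = 0.0547 to 0.0867). Cxcl10+ monocytes did not pass the exact test against Cx3cr1_lo macrophages (0.0451 ± 1.08 points, 0.863) or patrolling monocytes (0.434 ± 0.883 points, 0.0609), the latter called without 5 dpi replicate C (0.482 points, 0.0468) or 7 dpi replicate C (0.532 points, 0.0121). It was also called with means over cells (0.482 points, exact test, 0.0166), pooled shares (0.504 points, 0.00766), stricter filters (0.523 points, 0.0408) and 2000 to 10000 UMIs (0.871 points, 0.00679).

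Among the mesenchymal types, pro-remodeling FAPs were below adipogenic FAPs by 1.16 ± 1.44 points (19 of 21 samples, exact test, adjusted p = 0.00192) and below stem FAPs by 1.37 ± 2.00 points (16 of 19 samples, 0.00746), and tenocytes were below both. Stem and adipogenic FAPs did not differ (0.267 ± 1.39 points, 0.446). Pro-remodeling FAPs and tenocytes did not pass the exact test either (1.27 ± 2.79 points, 19 samples, 0.0697), although the difference was called without uninjured replicate A (1.5 points, 0.0304), uninjured replicate C (1.44 points, 0.0449) or 7 dpi replicate C (1.43 points, 0.0459), with at least 5 cells (1.62 points, 0.0212) and with stricter filters (1.49 points, 0.0300). Its direction was reversed with cells of 2000 to 10000 UMIs (-0.455 points, exact test, 0.504). NK cells were above T cells by 1.63 ± 1.52 points in 12 of 14 samples (0.00116), a call lost with cells of 2000 to 10000 UMIs (0.890 points, 0.278). B cells did not differ detectably from T cells (13 samples, 0.844) or, over 10 samples, from NK cells by the exact test (1.96 ± 3.17 points, 0.0940), the latter called without 1 dpi replicate C (a mean difference of -2.40 points, 0.0458), with at least 5 cells (-2.62 points, 0.00977) and with stricter filters (-2.20 points, 0.0313). Type IIb and IIx myonuclei had nearly the same level, with a mean difference of -0.171 ± 0.637 points over 19 samples (0.276). MuSCs were above myoblasts and progenitors in 10 of 10 samples, by 3.25 ± 3.48 points (0.00270), all of them samples at 3.5 to 7 dpi. The difference was 1.49 points among cells with a myogenic state (exact test, 0.00260) and 1.33 points among cells of the same class by 3 methods (0.00257).

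After injury the ribosomal share rose in some cell types and fell in others. Over the 6 time points, 13 of 23 types changed at an adjusted p under 0.05 (56.5%; permutation test of the F statistic over samples with 100000 resamples, adjusted over the 23 types). Of these, 6 had their largest difference from uninjured muscle as a rise (the 3 FAP subtypes, tenocytes, neural cells and type IIb myonuclei) and 3 as a fall (MuSCs, inflammatory monocytes and Cx3cr1_lo macrophages). The remaining 4 (dendritic cells, Cx3cr1_hi macrophages, patrolling monocytes, and myoblasts and progenitors) had fewer than 2 uninjured samples with enough cells and were compared among injured samples only. Below, a p-value of this test beside a rise, fall or difference between time points is for the whole time course. It does not measure that single difference.

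The largest rise was in pro-remodeling FAPs. Their levels were 8.03%, 8.55%, 7.82% and 9.84% in uninjured replicates A to D and 20.5%, 15.4%, 17.3% and 18.0% at 1 dpi. They were 14.6%, 15.3% and 10.9% at 2 dpi, 15.6%, 15.5%, 13.8% and 15.2% at 3.5 dpi, 11.2%, 11.4% and 11.9% at 5 dpi and 9.24%, 10.7% and 9.52% at 7 dpi. Every sample from 1 to 5 dpi was above every uninjured sample, and only the samples at 7 dpi overlapped with them. The mean rose by 9.24 points, from 8.56 ± 0.905% (SD, n = 4) to 17.8 ± 2.09% (n = 4), and the time course had p = 1e-05, the smallest these permutations can give (adjusted p = 0.000115).

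Stem FAPs started higher and peaked at the same time. They stood at 12.9%, 14.1%, 12.5% and 12.7% in uninjured replicates A to D and at 22.3%, 18.8% and 18.8% in 1 dpi replicates A, C and D, a rise of 6.91 points from 13.1 ± 0.735% (n = 4) to 20.0 ± 2.03% (n = 3; permutation test, adjusted p = 0.000115). At 7 dpi they stood at 10.5%, 11.9% and 10.1%, below every uninjured sample. Adipogenic FAPs were at 10.3%, 12.5%, 11.7% and 12.6% uninjured and at 20.9%, 18.0%, 15.2% and 18.4% at 1 dpi, a rise of 6.35 points from 11.8 ± 1.05% to 18.1 ± 2.36% (n = 4 each; permutation test, adjusted p = 0.000537). Over cells of any depth, all 3 FAP subtypes thus had their highest mean at 1 dpi. Uninjured and 1 dpi samples did not overlap in any of them.

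The FAP rise came with a larger number of UMIs per cell, and ribosomal UMIs rose more than the others did. In pro-remodeling FAPs the mean of the sample medians of ribosomal UMIs per cell was 7.51 times the uninjured value at 1 dpi and that of all other UMIs 3.29 times, while the mitochondrial share went from 11.4% to 4.36%. The corresponding ratios were 4.79 and 3.05 in stem FAPs and 3.07 and 2.26 in adipogenic FAPs. Among cells of 2000 to 10000 UMIs, pro-remodeling FAPs went only from 8.49 ± 0.777% to 10.6 ± 1.47% (n = 4 each) and the time course was no longer called (2.13 points, permutation test, adjusted p = 0.260). Under the same limit the difference at 1 dpi was 3.13 points in stem FAPs (0.0214). It was 1.05 points in adipogenic FAPs, with 1 sample left at 1 dpi, so that time point was not in a test. The highest mean moved to 3.5 dpi under this limit in pro-remodeling FAPs (11.2 ± 2.73%, n = 3). In adipogenic FAPs it was also at 3.5 dpi, 13.7% (n = 2) against 12.8% in the 1 sample at 1 dpi. In stem FAPs it stayed at 1 dpi (15.6 ± 0.975%, n = 2). With mitochondrial UMIs left out of the denominator, the rise in pro-remodeling FAPs was 9.03 points (0.000115). The part that cell size, depth or RNA quality had in the rise was not tested beyond these values.

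Tenocytes had their highest mean at 3.5 dpi. They stood at 10.9%, 10.0%, 9.68% and 11.2% in uninjured samples and at 13.4%, 12.6%, 13.8% and 13.1% at 3.5 dpi, without overlap, a rise of 2.77 points from 10.5 ± 0.706% to 13.2 ± 0.501% (n = 4 each; permutation test, adjusted p = 0.00621). At 1 dpi the 2 samples with enough tenocytes had 11.5% and 13.9%, the latter the highest of all samples, so a peak later than in FAPs is not shown. At 2 dpi they had 11.1%, 7.30% and 8.82%, a mean of 9.09 ± 1.93% (n = 3). With at least 20 cells only replicate C was left at 3.5 dpi (3.52 points above uninjured), so the rise could not be tested. Among cells of 2000 to 10000 UMIs no sample was left at 3.5 dpi. Under that limit the 1 dpi mean was below the uninjured one, 9.91 ± 0.554% (n = 2) against 10.8 ± 1.24% (n = 4).

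Neural cells rose briefly at 1 dpi. Their levels were 7.06%, 7.22%, 7.27% and 7.78% in uninjured replicates A to D and 10.4%, 10.1%, 9.52% and 8.74% at 1 dpi. They were 6.18%, 5.79% and 7.21% at 2 dpi, 7.91%, 8.87%, 6.76% and 6.94% at 3.5 dpi, 7.65%, 6.82% and 5.90% at 5 dpi and 7.08%, 6.35% and 6.69% at 7 dpi. The 1 dpi samples lay above all uninjured samples, with a difference of 2.35 points from 7.33 ± 0.313% to 9.68 ± 0.722% (n = 4 each; permutation test, adjusted p = 0.00257), and later samples overlapped with the uninjured ones. The samples at 1 dpi held 13, 14, 13 and 44 neural cells, and the call was lost with stricter filters (2.02 points, 0.249). With at least 20 cells only replicate D was left at 1 dpi (1.41 points above uninjured), so the rise could not be tested.

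Both fast myonuclei had their highest mean at 3.5 dpi. Type IIb myonuclei stood at 5.51%, 6.53%, 6.90% and 7.17% in uninjured replicates A to D, at 6.68%, 7.47% and 6.52% in 1 dpi replicates A, B and D and at 7.47%, 7.13% and 7.72% at 2 dpi. They reached 8.86%, 9.54%, 8.57% and 8.72% at 3.5 dpi and stood at 7.63%, 7.86% and 8.71% at 5 dpi and 7.65%, 7.02% and 8.54% at 7 dpi. Samples at 3.5 and 5 dpi did not overlap with uninjured ones, and the rise at 3.5 dpi was 2.40 points, from 6.53 ± 0.724% to 8.92 ± 0.426% (n = 4 each; permutation test, adjusted p = 0.00257). The mean mitochondrial share of cells with this label fell over the same samples from 8.45% to 0.0400%. The call was lost with at least 750 genes per cell (1.81 points, permutation test, 0.0815), stricter filters (1.45 points, 0.226) and 2000 to 10000 UMIs (1.42 points, 0.0677). Under the last 2 the highest mean was at 5 dpi, 8.52% against 8.27% at 3.5 dpi with stricter filters and 8.75% against 8.07% with 2000 to 10000 UMIs. Type IIx myonuclei went from 5.87%, 6.64%, 7.05% and 8.09% uninjured to 10.3%, 8.49% and 8.35% in 3.5 dpi replicates A to C, a difference of 2.12 points that did not pass the permutation test (adjusted p = 0.0697). It did pass with at least 5 cells (0.0320), means over cells (0.00498), pooled shares (0.00945), and without uninjured replicate D (2.52 points, 0.0351) or 5 dpi replicate A (2.12 points, 0.0413).

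**Figure D2:**
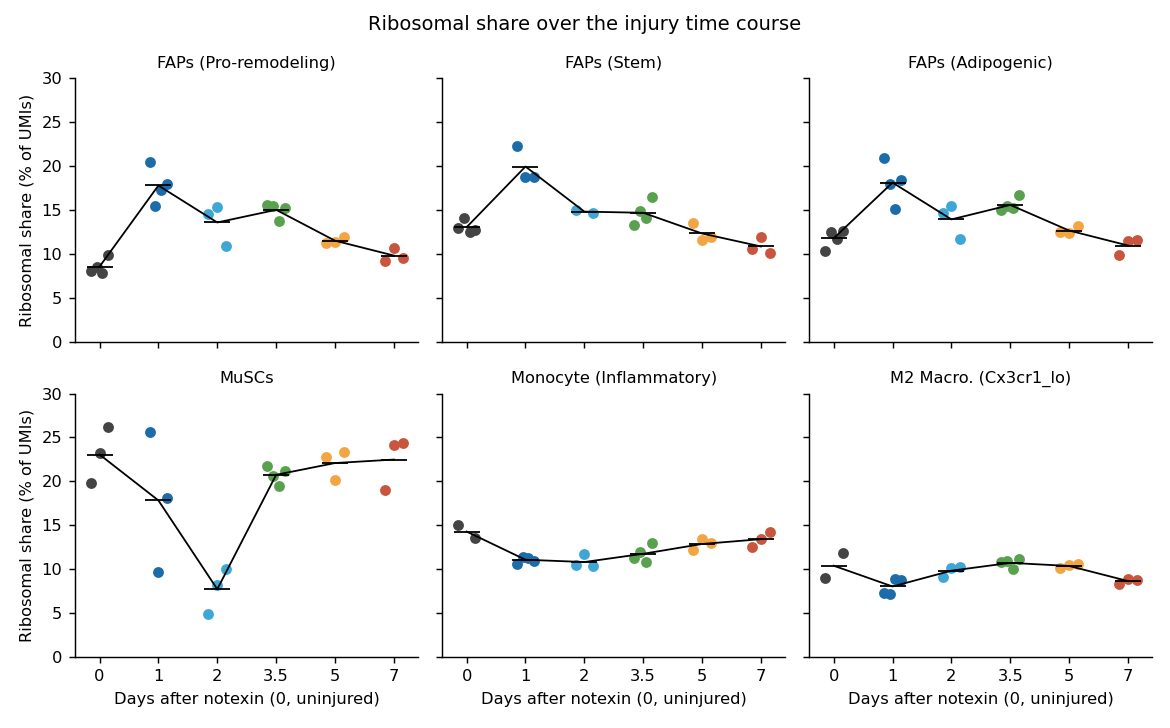
Ribosomal share (percent of UMIs, vertical axis) by days after notexin (horizontal axis) for 6 cell types, with 1 point per sample and the mean of each time point. Pro-remodeling FAPs go from a mean of 8.56% in uninjured muscle to 17.8% at 1 dpi, while MuSCs go from 23% to 7.70% at 2 dpi.

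Under the Harmony labels, MuSCs showed the largest fall. Their levels were 19.8%, 23.2% and 26.2% in uninjured replicates A to C, 25.7%, 9.72% and 18.1% in 1 dpi replicates A, C and D, and 4.91%, 8.22% and 9.98% at 2 dpi. They were back at 21.7%, 20.6%, 19.5% and 21.2% at 3.5 dpi, 22.8%, 20.1% and 23.3% at 5 dpi and 19.0%, 24.1% and 24.3% at 7 dpi. All 3 samples at 2 dpi were below every sample of the other time points except 1 dpi replicate C, which lay within their range. The mean fell by 15.3 points, from 23 ± 3.18% to 7.70 ± 2.57% (n = 3 each; permutation test over the time course, adjusted p = 0.0167). The call was lost with at least 750 genes per cell, where the mean fell by 11.1 points (0.0590), and with the replicate letter as a block (-15.3 points, 0.0586). With at least 750 genes the 2 dpi samples ran from 6.36% to 20.1% and overlapped with the uninjured ones, whose lowest was 19.8%. With stricter filters no sample was left at 2 dpi, so the fall could not be tested.

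The MuSCs at 1 and 2 dpi were also cells of low depth. They held 1593 UMIs at 1 dpi and 1810 at 2 dpi on average over samples, against 5085 in uninjured muscle and 16092 at 3.5 dpi. Among MuSCs of 2000 to 10000 UMIs, the mean level was 23.6 ± 2.91% in uninjured muscle (n = 3) and 7.40 ± 0.837% at 2 dpi (n = 2). Most MuSCs at 1 and 2 dpi carried no myogenic state: 96.2%, 90% and 86.4% of them in 2 dpi replicates A to C. These cells without a state had levels of 4.86%, 7.89% and 3.42%, 677, 731 and 695 genes and mitochondrial shares of 20.5%, 20.2% and 12.8%. At 1 dpi the cells without a state made up 68.8% in replicate A and 75% in replicate D, with 768 and 719 genes, but levels of 20.4% and 13%. In 1 dpi replicate C, 83.6% had no state and a level of 8.04%, while the 10 cells with a state had 28.3%. Over all samples, MuSCs with a state had levels of 19.1% to 28.3% (14 samples, median 23.1%) and those without 3.42% to 22.7% (19 samples, median 20.0%). No sample at 2 dpi held 10 MuSCs with a state, so the fall at 2 dpi concerns cells without a state. The study chose cells for its trajectory by the consensus of 3 integration methods, and whether these cells entered it is not given. With Scanorama labels the class of myogenic cells showed no fall at 2 dpi (0.270 points). With BBKNN labels, another integration method, and with cells of the same class by 3 methods, its difference at 2 dpi could not be computed. Whether the fall reflects stem cells or their RNA quality was not tested.

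Myoblasts and progenitors, the dividing and differentiating descendants of MuSCs, reached 10 cells only from 3.5 dpi on. They stood at 20.1%, 19.0%, 17.6% and 18.5% at 3.5 dpi, 20.9%, 19.7% and 20.5% at 5 dpi and 17.3%, 18.7% and 11.9% at 7 dpi. The 5 dpi samples were above the 7 dpi samples without overlap, with means of 20.3 ± 0.602% and 15.9 ± 3.58% (n = 3 each; permutation test over the time course, adjusted p = 0.0468). This difference was reversed among cells with a myogenic state (-0.290 points, 0.192), which stood at 21 ± 0.849% and 21.3 ± 2.51%. Within 5 samples that had 10 cells of each kind, progenitors with a state were above those without by 11.2 ± 3.37 points. The cells without a state had levels of 8.26% to 15.3% and median mitochondrial shares of 0% to 0.633%, and they made up 65.5% of the label in 7 dpi replicate C. The call was lost with mitochondrial UMIs left out (4.58 points, permutation test, 0.0947), at least 750 genes (3.87 points, 0.145), stricter filters (4.32 points, 0.317) and 2000 to 10000 UMIs (5.17 points, 0.127). It was also lost without any sample at 3.5 or 5 dpi, 7 dpi replicate A or C, or 1 dpi replicate A, whose removal changed only the adjustment (4.39 points, 0.0507), and without 7 dpi replicate C the difference was 2.36 points (0.113).

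Monocyte and macrophage types had their lowest mean at 1 or 2 dpi. Inflammatory monocytes stood at 15% and 13.5% in uninjured replicates B and C, at 10.6%, 11.4%, 11.3% and 10.9% at 1 dpi and at 10.4%, 11.7% and 10.3% at 2 dpi. At 7 dpi they stood at 12.5%, 13.4% and 14.2%, a mean of 13.4%. The mean fell by 3.47 points from 14.3 ± 1.10% (n = 2) to 10.8 ± 0.759% (n = 3) at 2 dpi (permutation test, adjusted p = 0.00282). Cx3cr1_lo macrophages stood at 8.95% and 11.8% uninjured and at 7.24%, 7.20%, 8.86% and 8.77% at 1 dpi. The 1 dpi mean was 8.01 ± 0.923% (n = 4), a fall of 2.36 points (permutation test over the whole time course, adjusted p = 0.00699). The size of that fall rests on 2 uninjured samples of 23 cells each: the difference was -0.939 points without uninjured replicate C and -3.79 points without uninjured replicate B, and stricter filters ended the call (-3.46 points, 0.0521). After a mean of 10.7% at 3.5 dpi, Cx3cr1_lo macrophages were low again at 7 dpi, with 8.63 ± 0.293% (n = 3, 8.29% to 8.82%). These 7 dpi samples lay below both uninjured samples and within the range at 1 dpi. In the types without enough uninjured samples, means went from 14.4 ± 0.928% at 1 dpi to 17.7 ± 0.270% at 5 dpi in dendritic cells (adjusted p = 0.0258), from 9.79 ± 0.385% to 12.2 ± 0.392% in Cx3cr1_hi macrophages (0.00257) and from 7.71 ± 0.636% to 9.95 ± 0.345% in patrolling monocytes (0.00282), with 4 samples at 1 dpi and 3 at 5 dpi and the same permutation test. Samples at 1 and 5 dpi did not overlap in any of these 3 types. The dendritic call was lost without 1 dpi replicate A (3.30 points, 0.0682), C (3.22 points, 0.0592) or D (3.19 points, 0.0642).

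Neutrophils, the lowest type, did not pass the test (permutation test, adjusted p = 0.0897). They stood at 3.17% in uninjured replicate C, the uninjured sample with enough of them, at 2.10%, 2.41%, 2.65% and 1.91% at 1 dpi and at 4.6%, 3.24% and 3.63% at 2 dpi. At 3.5 dpi they had 2.80%, 2.54%, 8.38% and 6.36%, at 5 dpi 6.44% and 11.2% in replicates A and B, and at 7 dpi 3.30%, 2.45% and 8.09%. The samples above 6% held many cells that BBKNN, another integration method, labelled otherwise. Neutrophils with the same BBKNN label had a median level of 2.54% (15 samples, 1.86% to 6.39%) and those with another label 8.70% (10 samples, 4.18% to 12.4%), and in 5 dpi replicate B 91.5% had another label. In 2 dpi replicate A the order was the other way, with 6.39% in cells of the same label and 4.18% in the 82.2% with another.

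Lymphocytes and NK cells did not pass the test over the time course. NK cells stood at 17.6% in 1 dpi replicate C, 18.5%, 18.1% and 24.6% at 2 dpi, 18.9%, 18.8%, 22.0% and 20.8% at 3.5 dpi, 22.4%, 21.9% and 23.5% at 5 dpi and 18.6%, 20.0% and 21.1% at 7 dpi. B cells stood at 23.5%, 20.5% and 21.9% in uninjured replicates A to C, 19.6% and 20.0% in 1 dpi replicates C and D, 12.4% and 17.5% in 2 dpi replicates A and B, 14.2% and 22.2% in 3.5 dpi replicates C and D, 19.5% and 18.5% in 5 dpi replicates A and B and 19.2%, 19.0% and 19.2% at 7 dpi. All B cell samples after injury except 3.5 dpi replicate D lay below all uninjured ones, and NK cells at 5 dpi lay above those at 7 dpi. Neither type passed the permutation test over the time course (adjusted p = 0.373 for NK and 0.195 for B cells). T cells ranged from 15% to 23.5% in 17 samples and stood at 4.25% in 1 dpi replicate A (18 samples, permutation test, adjusted p = 0.0897). The other types that did not pass were artery (0.0555), capillary (0.281) and vein (0.373) endothelial cells, smooth muscle cells (0.349) and Cxcl10+ monocytes (0.0697).

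Single time points were also set against uninjured muscle, with a two-sided exact permutation test of the difference in means in 59 combinations of 13 types and 5 time points. None passed the adjusted exact test (0%; lowest adjusted p = 0.140), and 12 had an unadjusted p under 0.05. With 4 mice against 3 or 4 the smallest exact p is 0.029, and with 3 against 3 it is 0.1, so that a call was practically out of reach and its absence says little. Groups did not overlap in 16 of the 59 combinations (27.1%). Of the types tested, 9 of 11 had a higher mean than uninjured muscle at 1 dpi, 6 of 11 at 2 dpi, 10 of 12 at 3.5 dpi, 7 of 12 at 5 dpi and 4 of 13 at 7 dpi, and 6 of the 16 combinations without overlap were rises at 3.5 dpi.

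Grouped into 8 broad classes, 5 changed over time (62.5%; permutation test over all time points, adjusted over the 8 classes). A class value is the mean over the types of the class that reached 10 cells in the sample, so it also moves with which types are present. The class of FAPs and tenocytes rose by 6.76 points at 1 dpi, from 11.0% to 17.7% (permutation test, adjusted p = 8e-05), and myonuclei by 2.22 points at 3.5 dpi, from 6.72% to 8.94% (0.00541). Within the myonuclei, the type IIb call was lost with at least 750 genes, stricter filters and 2000 to 10000 UMIs, as above. The class of myogenic stem and progenitor cells fell by 15.3 points at 2 dpi (0.0137), and the myeloid class value was 3.25 points lower at 1 dpi, 8.79% (n = 4) against 12% (n = 2; 0.0137). The 2 uninjured myeloid values were 14.3% in replicate B, without neutrophils, and 9.78% in replicate C, without dendritic cells, each over 4 of the 7 types, while all 7 were present at 1 dpi. A change of types and a change of level were not separated in this class. The difference was -5.50 points without replicate C and -0.994 points without replicate B. The myeloid call was lost with at least 5 cells (-3.09 points, permutation test, 0.0557), the same class by 3 methods (-3.15 points, 0.0516) and Scanorama labels (-2.56 points, 0.0749). With Scanorama labels the myogenic difference was not called (0.270 points, permutation test, 0.127). With BBKNN labels or the same class by 3 methods it could not be computed. Among cells of 2000 to 10000 UMIs the difference of FAPs and tenocytes at 1 dpi was 0.262 points and not called (permutation test, 0.130). Neural cells, alone in their class, rose as above (0.00216). Endothelial (0.316), smooth muscle (0.319) and lymphoid (0.106) cells did not change detectably. Whether classes moved differently was tested on their difference within samples, and 15 of 28 pairs of classes did (53.6%). At 1 dpi the lead of FAPs and tenocytes over myeloid cells grew by 10.1 points, from -1.18 to 8.94 points (permutation test, adjusted p = 0.00084), and that over endothelial cells by 6.67 points, the endothelial difference going from -0.277 to -6.95 points (0.00411).

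Across whole samples the ribosomal share was highest at 5 dpi. The median over all cells of a sample was 8.52 ± 0.944% in uninjured muscle (n = 4), 8.86 ± 1.06% at 1 dpi (n = 4), 9.56 ± 0.449% at 2 dpi (n = 3), 11.1 ± 0.465% at 3.5 dpi (n = 4), 12 ± 0.152% at 5 dpi (n = 3) and 10.1 ± 0.446% at 7 dpi (n = 3; permutation test, p = 7e-05). No sample at 3.5, 5 or 7 dpi overlapped with uninjured samples. With each cell type given the same weight, by an additive fit of sample and type, the means were 12.1 ± 0.696%, 12.4 ± 0.170%, 11.3 ± 0.270%, 13.1 ± 0.488%, 12.9 ± 0.0396% and 11.7 ± 0.419% in the same order (permutation test, p = 0.00058). The largest difference from uninjured samples was then 0.981 points, at 3.5 dpi, against 3.49 points, at 5 dpi, over all cells, so most of the whole-sample rise was not present once types weighed the same. That 0.981 points became 0.441 with at least 5 cells, 1.5 with at least 20 cells and 0.0153 with mitochondrial UMIs left out of the denominator. The permutation test over all time points gave p between 0.00013 and 0.00988 there, which does not measure the difference from uninjured samples. In the main setting the widest gap between time points was 1.81 points, from 2 dpi to 3.5 dpi.

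The myogenic states order cells from quiescent MuSCs over activated MuSCs and committed myoblasts to fusing myocytes, and 2189 cells carried one. Median levels over samples were 23% in quiescent MuSCs (14 samples, 19.1% to 27.6%), 20.6% in activated MuSCs (10 samples, 18.2% to 24.9%), 20.7% in committed myoblasts (8 samples, 16.6% to 24.0%) and 16.9% in fusing myocytes (10 samples, 4.97% to 19.9%). Of the 6 pairs of states, 3 differed within samples (50%; two-sided exact sign-flip test, adjusted over the 6 pairs). The medians come from unlike samples, as quiescent MuSCs alone include several uninjured ones. Within samples, fusing myocytes, the cells that join into fibers, were below quiescent and activated MuSCs.

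Quiescent MuSCs were above fusing myocytes in 10 of 10 samples, by 5.95 ± 6.32 points (exact test, adjusted p = 0.0117), and activated MuSCs were above them in 9 of 9 samples, by 3.41 ± 2.76 points (exact test, 0.0117). The fusing cells of uninjured replicate A weighed on the former: these 10 cells had 4.97%, with 539 genes and a mitochondrial share of 19.5%, and without that sample the difference was 4.14 points (0.0117). Quiescent MuSCs were above activated MuSCs by 0.619 ± 0.633 points in 8 of 10 samples (exact test, 0.0430). This call was lost with means over cells (0.546 points, 0.0586) and on leaving out 3.5 dpi replicate A, B, C or D, 5 dpi replicate A or C, or 7 dpi replicate A or B (0.542 to 0.645 points, 0.0625 to 0.0859). Committed myoblasts did not differ detectably from quiescent MuSCs (0.748 ± 1.53 points, n = 8, exact test, 0.234), activated MuSCs (0.0528 ± 1.42 points, n = 8, exact test, 0.898) or fusing myocytes (3.74 ± 3.89 points, 6 of 8 samples, exact test, 0.0820). Quiescent MuSCs were called above committed myoblasts with pooled shares (1.02 points, exact test, 0.0469) and mitochondrial UMIs left out (1.41 points, 0.0469). Committed myoblasts were called above fusing myocytes with at least 5 cells (3.77 points, exact test, 0.0469), means over cells (3.38 points, 0.0156), pooled shares (3.60 points, 0.0117) and mitochondrial UMIs left out (4.20 points, 0.0312).

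**Figure D3:**
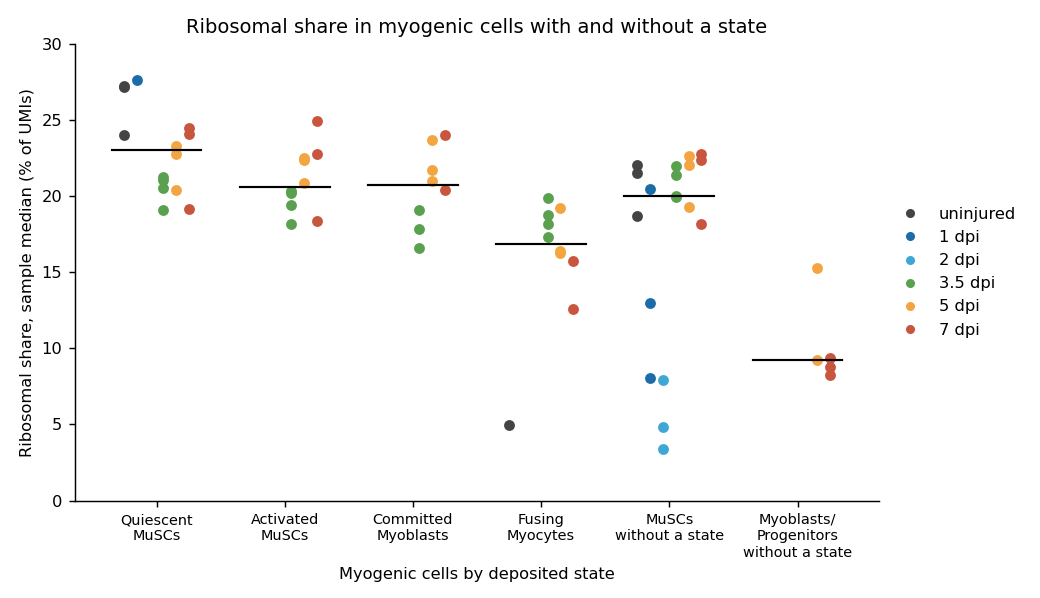
Ribosomal share (percent of UMIs, vertical axis) of the 4 myogenic states and of MuSCs and progenitors without a state (horizontal axis), with 1 point per sample, colours for time points and lines at the median over samples. Medians go from 23% in quiescent MuSCs to 16.9% in fusing myocytes.

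Over time none of the 4 states passed the adjusted test (0%; permutation test of the F statistic), and 2 had an unadjusted p under 0.05. Quiescent MuSCs stood at 27.2%, 24.0% and 27.2% in uninjured replicates A to C, 27.6% in 1 dpi replicate C, 21.3%, 21.1%, 19.1% and 20.5% at 3.5 dpi, 22.8%, 20.4% and 23.3% at 5 dpi and 19.1%, 24.1% and 24.5% at 7 dpi. The 3.5 dpi samples lay below all uninjured samples, with means of 20.5 ± 0.985% (n = 4) and 26.1 ± 1.85% (n = 3), and the permutation test gave p = 0.0273 (adjusted 0.0619). Fusing myocytes stood at 19.9%, 18.8%, 17.3% and 18.2% at 3.5 dpi, 16.4%, 19.2% and 16.3% at 5 dpi and 12.6% and 15.8% in 7 dpi replicates A and B (permutation test, p = 0.0310, adjusted 0.0619). Committed myoblasts ran the other way, with 19.1%, 16.6% and 17.8% in 3.5 dpi replicates B to D, 21.7%, 21% and 23.7% at 5 dpi and 20.4% and 24.0% in 7 dpi replicates A and B (permutation test, adjusted p = 0.0751). Activated MuSCs had 20.2%, 20.3%, 18.2% and 19.4% at 3.5 dpi, 22.4%, 20.9% and 22.5% at 5 dpi and 18.4%, 22.8% and 24.9% at 7 dpi (permutation test, adjusted p = 0.214). Depth moved too: at the median over samples, quiescent MuSCs held 5349 UMIs uninjured and 19584 at 3.5 dpi. Fusing myocytes held 40620 UMIs at 3.5 dpi and 9487 at 7 dpi. The quiescent MuSCs of 1 dpi replicate C were 11 cells with 688 genes at the median. A part of depth in these changes was not tested.

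The state time courses depended on single samples, on the minimum of cells and on the treatment of UMIs. Without 7 dpi replicate A, quiescent MuSCs (-5.65 points, 0.00269) and activated MuSCs (4.35 points between 3.5 and 7 dpi, 0.00269) passed the test, and without 5 dpi replicate B fusing myocytes did (4.37 points between 7 and 3.5 dpi, 0.0376). With at least 5 cells per sample, quiescent MuSCs, committed myoblasts (0.0185 each) and fusing myocytes (0.00088) passed. Quiescent MuSCs also passed with mitochondrial UMIs left out (-8.49 points, permutation test, 0.0154). With 2000 to 10000 UMIs they passed over the other time points (0.0135), as 3.5 dpi held 1 sample (-6.15 points).

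Depth and quality measures were set against the sample level with equal weight for types, over the 21 samples, with permutation p-values adjusted over 8 tests. The level went with the median UMIs per cell (Pearson's r = 0.474, p = 0.0295; Spearman's rho = 0.455, p = 0.0395), but neither passed the adjustment (0.158 for both). Without 3.5 dpi replicates A and B, the 2 samples farthest from the median UMIs, r was 0.371, and after subtracting the mean of each time point 0.140. For the median mitochondrial share r was -0.160 (p = 0.488, adjusted 0.558) and rho -0.331 (p = 0.141, adjusted 0.377), for the ambient RNA fraction estimated by SoupX r was 0.122 (p = 0.599, adjusted 0.599) and rho 0.166 (p = 0.469, adjusted 0.558), and for sequencing saturation r was -0.174 (p = 0.449, adjusted 0.558) and rho -0.226 (p = 0.324, adjusted 0.558). Without the 2 farthest samples r was -0.473, 0.240 and -0.178 for these measures, and with time means removed 0.134, -0.0130 and 0.0119. Without uninjured replicates B and C, the 2 farthest in mitochondrial share, its permutation p was 0.0314 (adjusted 0.145). No adjusted test was passed, and a part of depth or quality in the levels was not tested by these sample means.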

How the data were processed

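The authors aligned the reads to mm10, subtracted ambient RNA with SoupX, filtered cells and removed doublets before deposit, so all cells were called singlets; the submitters' processing notes name Cell Ranger 3.1.0 and Seurat 3.1.5. The deposited UMI totals per cell are expected counts, not whole numbers after SoupX. The deposited numbers of genes per cell are counts. The ribosomal and mitochondrial shares and the sequencing saturation are percent values computed by the authors. The deposited ambient RNA value is a fraction estimated per sample by SoupX. The study's methods state a minimum of 750 genes per cell, yet 5636 deposited cells had fewer; they were kept, with no further filter, and left out as an alternative.

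Sample medians per Harmony label or state with at least 10 cells were compared over mice, with 2 or more samples per time point. Pairs used exact sign-flip tests within samples, time courses permutation tests with 100000 resamples (smallest p = 1e-05), single time points exact permutation tests, all two-sided where a sign applies and adjusted by the Benjamini-Hochberg method at 0.05. The scripts (Python 3.11.15, numpy 2.4.6, pandas 2.3.3, matplotlib 3.10.9) were tested on simulated data. Members and lists were chosen with earlier results of these data known. The text gives every type's level, every sample value for the 3 highest and 3 lowest types, the 5 largest rises and falls among changed types, MuSCs, progenitors, myonuclei and states in any case, and pairs within 1 broad class. Alternatives were other minimums of cells (5 or 20), means, pooled shares (summed ribosomal over summed UMIs), mitochondrial UMIs left out, at least 750 genes, stricter filters (at least 1000 genes and 2000 UMIs, at most 15% mitochondrial UMIs), 2000 to 10000 UMIs, cells of the same class by 3 integration methods, other labels, a logit scale, replicate letters as blocks, and each sample left out in turn. Chosen after seeing the data were neutrophils with the same BBKNN label, MuSCs and progenitors with a state, and state cells with such a label. Depth was 5602464 to 70730171 UMIs per sample.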

Additional observations from a re-analysis of the deposited data

Results flagged for a closer look

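In 53 groups of 4 to 10 samples, 1 (1.89%) had a sample far from the others for its range, and chance alone gives about 1 in 20 groups: dendritic cells of 1 dpi replicate B had a ribosomal share of 15.7%, against 13.8% to 14.1% in the other 1 dpi samples.

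For 15 pairs of broad classes the within-sample difference changed over the time points (permutation test, adjusted p from 0.00084 to 0.0295), and the values here are the changes of the difference from uninjured muscle at the time point where it was largest. At 1 dpi, FAPs and tenocytes gained 10.1 points on myeloid cells, 15.5 on lymphoid cells, 7.11 on myonuclei and 4.42 on neural cells, while endothelial minus FAP and tenocyte levels changed by -6.67 points and smooth muscle minus FAP and tenocyte levels by -5.80. At the same time point neural cells gained 5.68 points on myeloid and 10.5 on lymphoid cells. The lymphoid values at 1 dpi include replicate A, whose T cells stood at 4.25%. At 2 dpi, the difference from myogenic stem and progenitor cells changed by 15.5 points for endothelial cells, 14.8 for smooth muscle cells, 17.1 for FAPs and tenocytes, 14.6 for neural cells and 14.9 for myeloid cells, and the myogenic minus myonuclei difference by -16.3 points. At 5 dpi, the neural minus myonuclei difference changed by -2.09 points.

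Several of these differences depended on samples or settings. The 6 differences from myogenic cells at 2 dpi were not called with at least 750 genes (permutation test, adjusted p = 0.0521 to 0.161), and with Scanorama labels they were small, from -1.69 points against myeloid cells to 2.00 points against FAPs and tenocytes. The call for endothelial cells was lost without 2 dpi replicate A (14 points) or B (15.7), for smooth muscle cells without replicate A (12.4) and for myeloid cells without replicate A (13.7), B (15) or C (15.9). Without 1 dpi replicate A, FAPs and tenocytes gained 9.16 points on lymphoid cells and neural cells 5.39. The latter call was then lost, as it was without uninjured replicate A (9.60) or B (10.5), 2 dpi replicate B or any sample at 5 or 7 dpi (10.5 each). Neural cells gained 3.40 points on myeloid cells without uninjured replicate B, and the neural minus myonuclei difference was -1.38 points without 5 dpi replicate C. Among cells of 2000 to 10000 UMIs, FAPs and tenocytes gained 4.35 points on myeloid cells (permutation test, adjusted p = 0.0674), and the endothelial minus FAP and tenocyte difference changed by -0.0378 points (0.790).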

How the results depend on the processing

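Over the processing alternatives, 197 to 224 pairs of types were called against 216, and 9 to 18 type time courses against 13 (212 to 220 and 11 to 14 on leaving out each sample). Single time points gave 0 calls under each setting, which the smallest exact p practically fixed and which shows no stability. The whole-sample rise kept its direction and side of the threshold under all 9 alternatives and without each sample (3.05 to 3.78 points). With types of equal weight, the difference at 3.5 dpi was 0.0153 points with mitochondrial UMIs left out, practically none, and 0.667 to 1.23 points without each sample. Of the called or always named time courses by type, 159 of 178 values under processing alternatives and 279 of 294 without a sample kept direction and side, and of the within-class pairs 395 of 420 and 708 of 735. The time course values include a few where the compared time point held 1 sample and so was not in the test.

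Counts that moved by over 1.5 times were these. Classes that changed (5) were 2 with stricter filters, and 3 each with 2000 to 10000 UMIs, with cells of the same class by 3 methods and with Scanorama labels. Class differences (15) were 7 with at least 750 genes and 1 with 2000 to 10000 UMIs. State pairs (3) were 1 with at least 20 cells, 5 with pooled shares and 5 with mitochondrial UMIs left out, and 2000 to 10000 UMIs gave no value. State time courses (0) were 3 with at least 5 cells, 1 with mitochondrial UMIs left out, 1 with 2000 to 10000 UMIs and 0 to 2 without each sample.

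Some directions were reversed. With time means removed, r became 0.134 for the mitochondrial share, -0.0130 for SoupX and 0.0119 for saturation. The difference of progenitors between 5 and 7 dpi became -0.475 points with the same class by 3 methods and -0.290 with a state. B minus T cells became 0.602 (at least 5 cells), 0.542 (mitochondrial UMIs left out), 0.0189 (stricter filters) and 0.189 (same class), and -0.677 to 0.266 without each sample. Pro-remodeling FAPs minus tenocytes became -0.455 (2000 to 10000 UMIs), Cx3cr1_lo macrophages minus Cxcl10+ monocytes -0.0960 (at least 5 cells; -0.0202 to 0.197 without each sample), type IIb minus IIx myonuclei 0.0632 (pooled shares) and activated MuSCs minus committed myoblasts -0.000939 (stricter filters; -0.166 to 0.355 without each sample). The cause was not tested.

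The replicate letter as a block gave 14 type time courses (12 of them among the 13), 5 classes, 14 class differences and 0 states, by permutation a whole-sample rise of 3.49 points (p = 0.00016) and 0.981 points with types of equal weight (p = 0.00105). It ended the MuSC call (-15.3 points, permutation test, adjusted p = 0.0586) and no other of the 13. It shared 4 of the 5 classes and 11 of the 15 class differences. The letters did not pair samples: r was over 0.1 in 21 of 48 same-letter pairs, with a mean of 0.0240 against -0.0114 otherwise, and 3 of 21 samples correlated best with their own letter. No block was run for pairs, which are compared within samples, or for single time points, where permutations within letters cannot reach the threshold.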

Other observations

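Cells without a Harmony label, 3897 in all, entered no comparison of types. In the 17 samples with at least 10 of them, all injured, their ribosomal share was 4.33% to 12.9%, with a median of 9.59%. It stood at 6.65%, 4.33%, 7.12% and 8.24% at 1 dpi and at 11.9%, 9.59% and 11.2% at 7 dpi.

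Within a sample and type with at least 50 cells, the share was compared with depth over single cells, as a description of cells that share a library. Of 277 such Spearman correlations, 231 were above 0 for UMIs per cell (median 0.195) and 208 below 0 for the mitochondrial share (median -0.142). Smooth muscle (median 0.541 over 13 samples) and capillary endothelial cells (0.472 over 21 samples) had the highest medians with UMIs. Over the 23 types, Spearman's correlation of the level with the median UMIs was 0.279 and with the mitochondrial share 0.389. T cells of 1 dpi replicate A, with 4.25% the lowest T cell value, held 47 cells with 3626 UMIs, 1068 genes and a mitochondrial share of 15.2% at the median.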
